A study of Caenorhabditis elegans with 2 samples.

Results

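Candidate binding peaks of the tagged protein F37B4.10 that lie at piRNA genes are described here. They are the 1752 peaks, of 115634 in the authors' ranked list for both replicates together, whose summit was within 200 bp of an annotated piRNA gene. A further 15 such summits were left out because a gene for a tRNA, snRNA or snoRNA also lay in that range. The annotation (Ensembl, assembly WBcel235, the same sequence as ce11) holds 15363 piRNA genes, and 2760 of them had at least 1 of these summits within 200 bp. The members were chosen by position alone, so neither their signal nor their reproducibility was used.

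The peaks come from chromatin immunoprecipitation followed by sequencing (ChIP-seq) with an antibody against GFP, in whole Caenorhabditis elegans of strain OP374. These worms carry the integrated transgene wgIs374, which holds F37B4.10 fused to TY1, EGFP and 3xFLAG tags (clone P000012_E03) together with unc-119(+), in the background unc-119(tm4063). They were synchronised by starving L1 larvae after bleaching and taken as young adults at 61 h. The study holds 1 group of 2 biological replicates and no other condition, so no test between groups exists, and all comparisons here are descriptions of positions and values. Because chromatin came from whole worms, the germ line was not separated from the soma. A low signal from few cells and one from less binding per cell therefore cannot be told apart. The number of reads is unknown, and the control library was not analysed here.

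piRNAs are small RNAs that guide Piwi proteins against transposons and other foreign sequence in the germ line. In C. elegans they are the 21U-RNAs, which begin with uridine and are bound by the Piwi protein PRG-1. Each one is made from its own very short transcription unit, and great numbers of these units crowd into broad clusters on chromosome IV. Most carry a conserved upstream motif with the core letters GTTTCA, and the factors known to act on the clusters include PRDE-1, TOFU-4, TOFU-5 and SNPC-4, the last of which also serves snRNA genes.

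The annotated loci showed this layout. Of the 15363 piRNA genes, all 21 bases long, 96.2% had T as the first base. Most lie in a pair of clusters on chromosome IV. The left one, between 4.5 and 7.0 Mb, held 2816 piRNA genes from position 4630304 to 6998272. The right one held 11388, from position 13543927 to 17199461. Together they held 92.5% of the total. The rest of chromosome IV held 510 and the other 5 chromosomes 649. GTTTCA lay in the 60 bases before the 5' end in 65.0% of piRNA genes of the clusters, in 56.1% on the rest of chromosome IV and in 31.4% on other chromosomes. It was found in 3.23% of all windows of 60 bases tiled along 1 strand of the genome. The longer TGTTTCA, which contains it, lay before 48.5% of the cluster genes and in 1.25% of all such windows. The motif kept a fixed spacing, starting 41 to 47 bases before the 5' end in 9232 genes (60.1%), most often 44 bases before it (3174 genes, 20.7%).

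The piRNA genes nearest to the 3 strongest members of each cluster are shown as the 60 bases before the 5' end followed by the 21 bases of the gene, on the gene's own strand (RefSeq genome sequence, assembly WBcel235). Capitals mark TGTTTCA, or GTTTCA where only that is present, and the piRNA gene itself at the end. Intervals cover all 81 bases. The first 3 are from the left cluster (chrIV:5032869-5032949, chrIV:6425674-6425754 and chrIV:6242109-6242189) and the last 3 from the right cluster (chrIV:15530867-15530947, chrIV:17047609-17047689 and chrIV:15390482-15390562). The strand is plus for 21ur-7679 and 21ur-7587 and minus for the others.
21ur-1192: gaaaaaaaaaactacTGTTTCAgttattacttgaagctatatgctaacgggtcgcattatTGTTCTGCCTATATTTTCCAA
21ur-7679: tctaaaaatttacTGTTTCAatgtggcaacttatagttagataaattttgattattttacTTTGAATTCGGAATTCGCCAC
21ur-6414: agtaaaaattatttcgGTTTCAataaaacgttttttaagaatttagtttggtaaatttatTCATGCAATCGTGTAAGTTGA
21ur-11151: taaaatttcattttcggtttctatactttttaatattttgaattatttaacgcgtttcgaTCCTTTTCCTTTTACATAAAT
21ur-7587: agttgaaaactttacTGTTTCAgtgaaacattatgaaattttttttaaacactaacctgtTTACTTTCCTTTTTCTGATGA
21ur-15061: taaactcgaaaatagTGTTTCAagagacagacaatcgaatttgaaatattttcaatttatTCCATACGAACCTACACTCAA
The motif is present in 5 of the 6. In 21ur-11151, the gene nearest to the strongest member of all, neither string of letters is found in this window.

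Ranked summits were sparser near piRNA genes than in the other sequence of the same zone, and most so inside the clusters. That reference is all other sequence of the zone, not only the sequence flanking the genes. The clusters held 1347 members (76.9%), with 397 in the left cluster and 950 in the right, the rest of chromosome IV held 133, and other chromosomes held 272. Set against the sequence these windows cover, this was 0.529 summits per kb in the left cluster and 0.448 in the right, where the other sequence of the same cluster had 1.01 and 0.976. The ratio of the densities was therefore 0.526 in the left cluster (95% counting interval of the number of members 0.475 to 0.580) and 0.459 in the right cluster (0.431 to 0.489). On the rest of chromosome IV it was 0.657 (0.550 to 0.778) and on other chromosomes 0.868 (0.768 to 0.977). The intervals of the clusters did not overlap that of other chromosomes. The interval of the rest of chromosome IV overlapped that of the left cluster and that of other chromosomes, but not that of the right cluster. All these intervals cover counting error alone.

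Counted by gene, 16.6% of the piRNA genes in the clusters had a summit within 200 bp (2364 of 14204, exact 95% interval 16.0 to 17.3%). The share was 28.8% on the rest of chromosome IV (147 of 510) and 38.4% on other chromosomes (249 of 649). Several piRNA genes can share 1 summit, so the interval for the clusters is too narrow. Single chromosomes outside IV had between 33 members (III) and 77 (V), with ratios from 0.783 (V) to 0.990 (II).

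Both replicates showed the same order of zones. The ranked list of replicate 1 alone (58046 peaks) had 548 summits at piRNA genes in the clusters and a density ratio of 0.349, and that of replicate 2 (63045 peaks) had 742 and 0.430. On other chromosomes the ratios were 0.900 for replicate 1 (95% counting interval 0.757 to 1.06) and 0.878 for replicate 2 (0.742 to 1.03). Both of these intervals include 1. In the right cluster the values were 0.319 and 0.403, both below the 0.459 of the joint list.

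**Figure D1:**
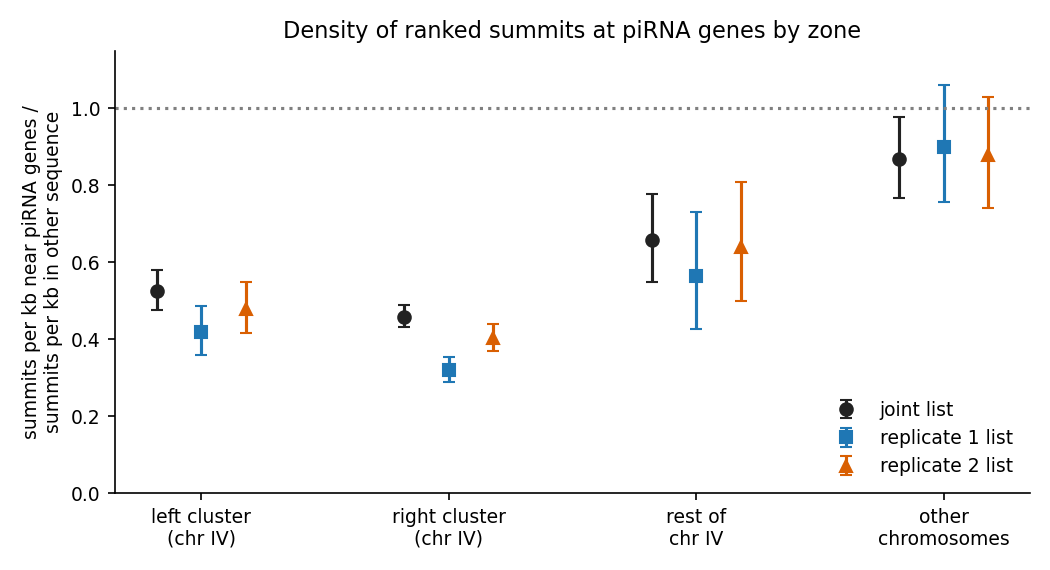
Ratio of summits per kb within 200 bp of piRNA genes to summits per kb in the other sequence of the zone (vertical axis, no unit), for 4 zones, from the joint ranked list and from each replicate's own list. Bars are 95% counting intervals for the number of summits at piRNA genes, and the dotted line marks equal density. The cluster ratios of the joint list are 0.526 and 0.459, and that of other chromosomes is 0.868.

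Summits thinned out steadily toward piRNA genes, over more than the 200 bp that define the members. Within 50 bp of a piRNA gene in the clusters there were 0.372 summits per kb, between 100 and 200 bp 0.601, between 200 and 400 bp 0.777, and beyond 3200 bp 1.19. The last value is close to the 1.18 per kb found beyond 3200 bp outside the clusters. The signal in the clusters was also lowest near piRNA genes, with a median of 18.1 within 50 bp and 21.8 between 100 and 200 bp. Farther out it did not rise steadily. It was 24.6 between 200 and 400 bp, 23.0 to 24.4 from there to 3200 bp, and 25.6 beyond. Outside the clusters the density was 0.742 per kb within 50 bp and 1.05 between 100 and 200 bp. The GC content of the sequence moved with the density in the clusters, from a median of 27.7% within 50 bp to 36.6% beyond 3200 bp (50 bp to each side of a position).

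Summits were also fewer where piRNA genes were more crowded. In the clusters, sequence with 1 piRNA gene within 200 bp had 0.571 summits per kb, with 2 genes 0.435, with 3 genes 0.381, with 4 or 5 genes 0.339, and with 6 or more genes 0.272. The last value rests on 14 summits (95% counting interval 0.149 to 0.457 per kb). Median GC content fell alongside, from 29.7% at 1 gene to 26.7% at 6 or more.

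**Figure D2:**
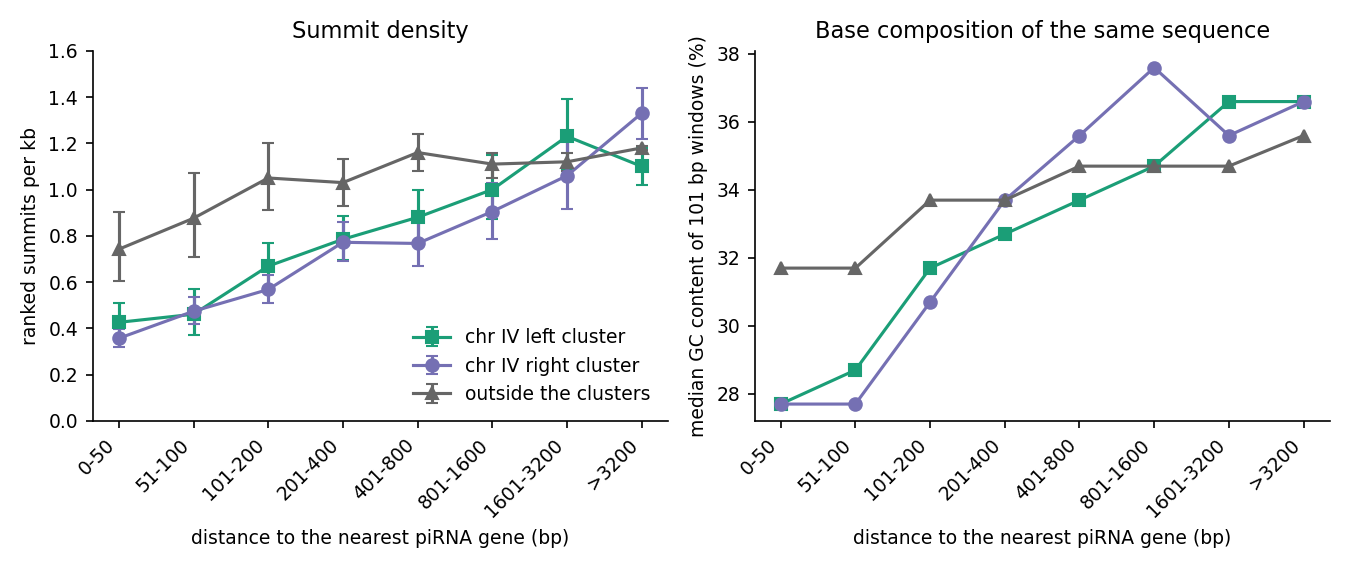
Left, ranked summits per kb (with 95% counting intervals) by distance in bp to the nearest piRNA gene in the left cluster, the right cluster and outside the clusters. Right, median GC content in percent (50 bp to each side) in the same sequence. Within 50 bp the clusters have 0.426 (left) and 0.357 (right) summits per kb, and GC content is at its lowest there.

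Summit density rose with GC content in this sequence, and at like GC content the difference was smaller. Sequence near piRNA genes in the clusters had a median GC content of 28.7%, and the other sequence of the clusters 35.6%. At 25 to 30% GC the density was 0.321 per kb near piRNA genes and 0.577 elsewhere in the clusters, a ratio of 0.557. At 40 to 45% GC it was 1.11 against 1.29 per kb, a ratio of 0.860. Summed over ranges of 5 points, the other sequence's densities would have given 1908 summits where 1347 were found, a ratio of 0.706. This pools both clusters, and each by itself gave a higher ratio (0.719 in the left, 0.729 in the right). The same calculation gave 0.805 on the rest of chromosome IV and 0.989 on other chromosomes (272 against 275). Sorting by annotation class as well (promoter, coding sequence, UTR, intron, intergenic) gave 0.748 in the clusters and 0.992 on other chromosomes. The part of base composition, and of how well reads can be placed in such sequence, in the remaining difference was not tested.

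At like GC content the ratio of members to the other sequence of the same cluster was 0.719 in the left cluster and 0.729 in the right, and 0.731 and 0.773 with annotation class as well, so the clusters were close in this measure. Taken by distance, the reference was the sequence beyond 3200 bp of the same cluster, which had 1.10 summits per kb in the left cluster and 1.33 in the right. Against that sequence, within ranges of GC content, the ratio within 50 bp of a piRNA gene was 0.426 in the right cluster (339 summits where that density would give 796) and 0.659 in the left cluster (114 against 173). Between 800 and 1600 bp it was 0.650 in the right cluster and 0.986 in the left. Outside the clusters it was 0.782 within 50 bp (98 against 125) and 0.993 between 100 and 200 bp.

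**Figure D3:**
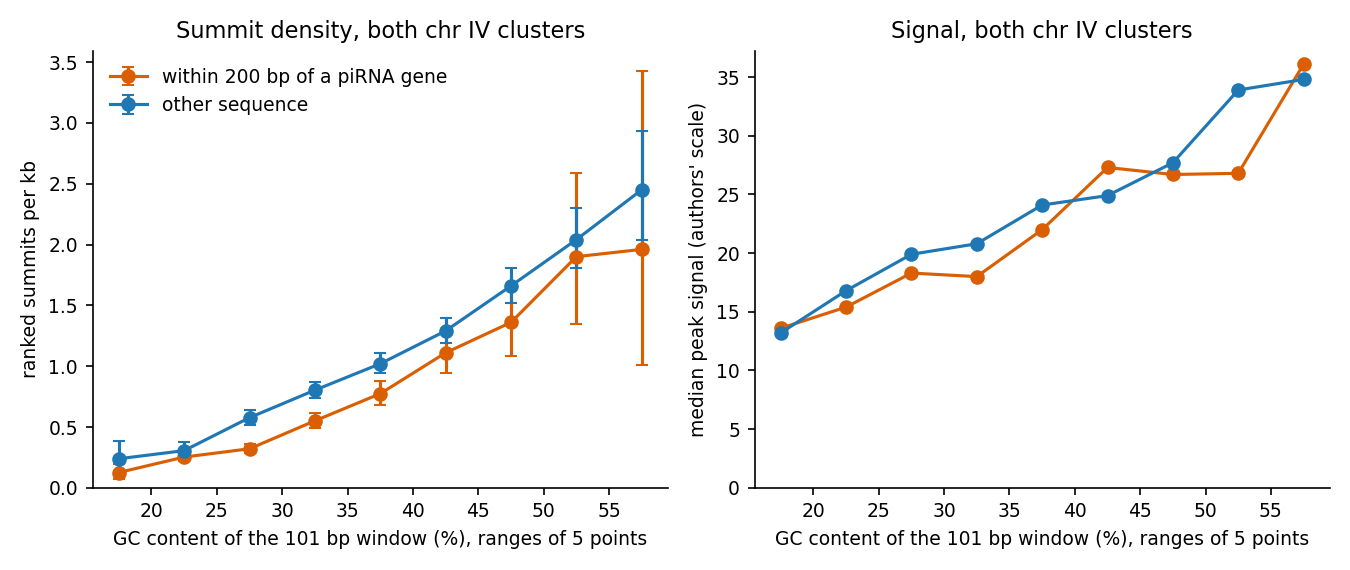
Both chromosome IV clusters by GC content in percent of the 50 bp to each side (ranges of 5 points, 15 to 60%). Left, ranked summits per kb within 200 bp of a piRNA gene and in the other sequence, with 95% counting intervals. Right, median peak signal on the authors' scale. Density rises with GC content in both kinds of sequence, and the piRNA curve lies lower in density in every range drawn (0.321 against 0.577 per kb at 25 to 30%).

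Density also differed between kinds of sequence. In the clusters 490 members (36.4%) were intergenic and 374 lay in introns of protein-coding genes. A further 256 lay in promoters, 211 in coding sequence and 16 in UTRs. Promoters here are the 1000 bp before and the 200 bp after the 5' end of any protein-coding transcript. This class took precedence, so the counts for introns, coding sequence and UTRs leave out such sequence inside promoters. The density ratio was lowest for intergenic sequence, at 0.459, and highest for coding sequence, at 0.791. Members in coding sequence of the clusters had a median signal of 25.1, against 26.2 for other ranked peaks in coding sequence there, whereas intergenic members had 18.7 against 24.5.

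In all, 963 members lay inside 454 protein-coding genes. The genes holding most members, picked after these counts were seen, were Y64G10A.7 (26 members among 112 piRNA genes), Y105C5A.15 (19 among 118), the forkhead factor gene fkh-7 (19 among 78) and unc-77 (18 among 63), which encodes a sodium leak channel subunit. Signals in Y64G10A.7 ran from 7.23 to 53.8 with a median of 19.5. Of the 10 genes with most members, 7 had fewer members per kb near their piRNA genes than other peaks per kb elsewhere in the gene, and 3 had more. In fkh-7 the densities were 1.12 and 1.73 per kb, in the netrin receptor gene unc-5 0.506 and 1.45 per kb (12 members), and in unc-77 1.09 and 0.998 per kb. Each rests on few summits.

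Signals of the peaks at piRNA genes were lower than those of other ranked peaks in the clusters, in the joint list and in both replicates' own lists. The signal comes with each peak from the authors, its scale is unstated, and it serves only to compare peaks within a list. In the left cluster members had a median of 19.6 (quartiles 12.9 and 28.1) and other peaks 24.0 (15.5 and 34.0). In the right cluster the medians were 19.8 (13.2 and 28.1) and 25.6 (15.9 and 36.4). On the rest of chromosome IV they were 20.5 and 23.6, and on other chromosomes 22.9 and 23.6. Within ranges of GC content the cluster difference shrank from -4.90 to a weighted mean of -1.56, with differences of -2.73 at 30 to 35% GC and 2.46 at 40 to 45% GC (members minus others). Replicate 1's own list gave medians of 14.6 at piRNA genes and 16.5 elsewhere in the clusters, and replicate 2's list 17.8 and 18.9. On other chromosomes the medians were 15.8 and 16.0 in replicate 1 and 17.5 and 18.9 in replicate 2, so in replicate 2 the difference there (-1.36) was no smaller than in the clusters (-1.08). Single chromosomes went both ways in the joint list, with 19.7 at piRNA genes and 23.9 elsewhere on II, and 25.7 and 23.2 on V.

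**Figure D4:**
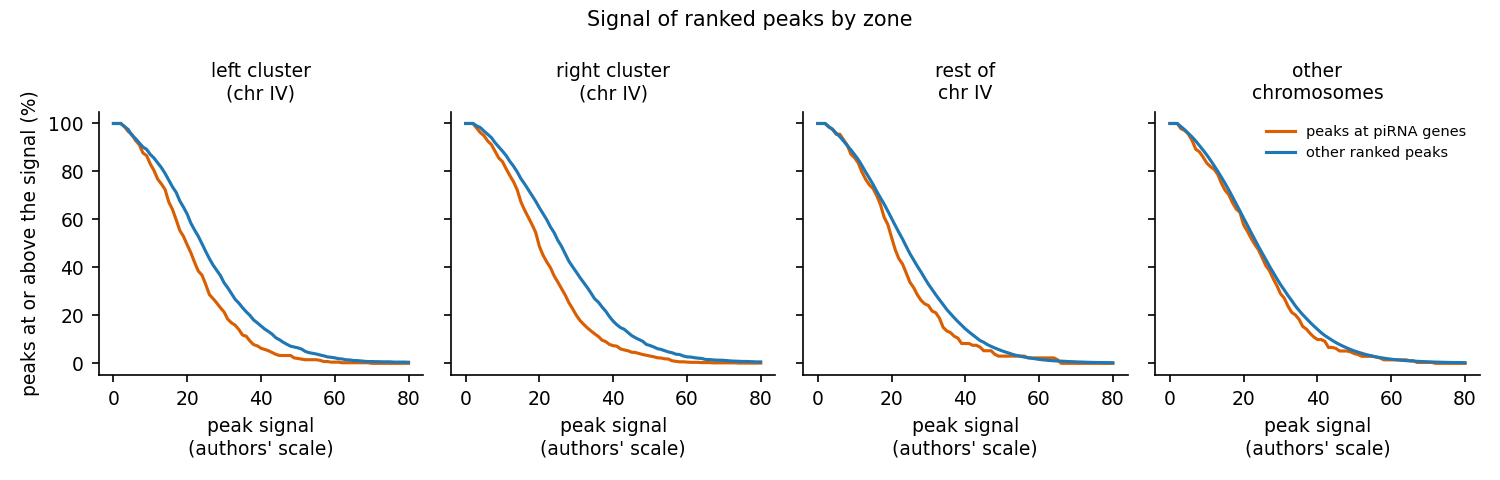
Percent of peaks at or above each signal (authors' scale) in 4 zones, for peaks at piRNA genes and other ranked peaks of the joint list. The curve of the piRNA peaks lies to the left in both clusters (medians 19.6 against 24.0 and 19.8 against 25.6) and nearly on the other curve on other chromosomes (22.9 against 23.6).

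Few of these peaks were strong or reproducible. An irreproducible discovery rate (IDR, the authors' measure of how inconsistently a peak ranks between inputs) of at most 0.01 was reached by 4 of the 1752 (0.228%), where 0.783% of all ranked peaks reached it. The lower share was plain in the clusters only, and outside them the counts were too small to compare zones. In the clusters 2 of 1347 members (0.148%) and 1.04% of other peaks reached it, and on the rest of IV 0 of 133 and 0.789%. On other chromosomes it was 2 of 272 members (0.735%) and 0.678% of other peaks. In the replicates' own lists 0 of 746 and 1 of 961 summits at piRNA genes reached it, where 0.200 and 0.216% of all peaks did. The strongest 10% of the joint list by signal (from 43.8 up) held 93 of the 1752 (5.31%). In the clusters it held 65 of the 1347 members (4.83%) and 394 of 3267 other peaks (12.1%). On other chromosomes it held 18 of 272 (6.62%).

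A summit of both replicates' own lists lay within 100 bp of 151 of the 1347 cluster members (11.2%, exact 95% interval 9.57 to 13.0%) and of 689 of 3267 other cluster peaks (21.1%, 19.7 to 22.5%). Neither list had one for 674 of the 1347 members and for 1180 of the 3267 other peaks (36.1%). The share rose with the signal in both kinds of peak. At signals of 10 to 20 it was 1.28% of cluster members and 2.90% of other cluster peaks, at 20 to 30 it was 9.38 and 9.15%, and at 30 to 40 it was 27.1 and 32.7%. At 40 to 50 it was 29 of 58 members and 191 of 313 other peaks (61.0%), and at 50 and over 78.4% (29 of 37) and 81.4% (184 of 226). Members were thus lower in these ranges except below 10 and at 20 to 30.

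The 4 members that reached the IDR limit were in the authors' conservative list of thresholded peaks, 2 in the right cluster and 2 outside chromosome IV. The strongest had a signal of 98.8 (rank 149 of the list, IDR 0.000966), with its summit exactly 200 bp from 21ur-11151 on IV, at the limit of the rule. It was intergenic, 2139 bp from the coding gene ari-1.4, and had signals of 38.2 in replicate 1 and 59.0 in replicate 2. Next was a peak in coding sequence of athp-3 with a signal of 73.2 (IDR 0.00551), 80 bp from 21ur-7587 and near 21ur-2300, with 31.2 in replicate 1 and 41.2 in replicate 2. The member at 21ur-14981 on chromosome I (signal 72.0, IDR 0.00994) lay in a promoter 275 bp from ego-1, which encodes an RNA-dependent RNA polymerase of germline small RNA pathways, with 42.8 and 29.6. The member at 21ur-15153 on X (66.2, IDR 0.00645) was intergenic, 501 bp from F17H10.1, with 33.1 and 37.4. All 4 were thus present in both replicates' ranked lists. The authors' other thresholded list held 3 members. Those at 21ur-11151 and 21ur-14981 were among them, but those at 21ur-7587 and 21ur-15153 were not. The remaining member in that list did not reach the IDR limit in the joint ranked list used here.

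Just past the limit was the strongest member of the left cluster, in coding sequence of C09B9.4 with 3 piRNA genes nearby (21ur-14544, 21ur-3393 and 21ur-1192). Its signal was 69.4 and its IDR 0.0101. It had a signal of 41.2 in replicate 2 and no summit in the list of replicate 1. The member at 21ur-15209 on III lay in coding sequence of pef-1 and had a signal of 66.6, with 29.6 in replicate 1 and 33.9 in replicate 2. The one at 21ur-15061 in the right cluster had 66.0, with 32.8 in replicate 2 alone. The remaining 3 of the 10 strongest were on the rest of chromosome IV. At 21ur-8227, in a promoter within egl-19, the gene of an L-type calcium channel, the signal was 65.4, with 29.0 and 28.4 in replicates 1 and 2. At 21ur-8623 it was 65.1, with 29.2 and 36.4. At 21ur-13782, in an intron of F56D5.6, it was 64.9, with 24.8 and 39.3. In the left cluster the next strongest were at 21ur-7679, in a promoter within acp-6 (61.7, with 34.8 and 21.4), and at 21ur-6414 (58.5, with 38.7 and 17.9).

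The strongest members had a higher GC content than 2 of the most crowded ones, as the summit with 50 bases to each side shows (plus strand, RefSeq, WBcel235). Capitals mark bases of annotated piRNA genes, which reach into the window of 21ur-9202 alone. The first 3 belong to the strongest members of the clusters (chrIV:15530617-15530717, chrIV:17047719-17047819 and chrIV:5032657-5032757), and the next 2 to members with the most piRNA genes within 200 bp (chrIV:16659956-16660056 and chrIV:14242451-14242551).
21ur-11151 peak: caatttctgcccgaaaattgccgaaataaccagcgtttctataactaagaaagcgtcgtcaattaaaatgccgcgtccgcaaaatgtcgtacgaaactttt
21ur-7587 peak: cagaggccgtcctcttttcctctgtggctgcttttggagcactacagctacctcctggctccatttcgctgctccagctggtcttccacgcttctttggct
21ur-1192 peak: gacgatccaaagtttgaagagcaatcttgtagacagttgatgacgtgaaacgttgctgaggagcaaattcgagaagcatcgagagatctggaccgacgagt
21ur-9202 peak: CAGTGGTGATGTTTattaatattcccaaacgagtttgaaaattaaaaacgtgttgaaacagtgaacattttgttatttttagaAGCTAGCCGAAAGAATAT
21ur-12353 peak: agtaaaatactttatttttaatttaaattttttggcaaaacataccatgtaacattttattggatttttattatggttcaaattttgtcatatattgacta
GC content was 40.6, 56.4 and 46.5% in the first 3 and 29.7 and 18.8% in the last 2. These crowded members had 8 and 7 piRNA genes within 200 bp and signals of 7.85 and 19.9, and neither had a summit of either replicate's own list within 100 bp.

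GC content and distance also moved with signal over all members. The 438 members of highest signal (28.7 to 98.8) had a median GC content of 38.6% and a median distance of 110 bp to the nearest piRNA gene, with 24.7% in coding sequence. The 438 of lowest signal (2.01 to 13.3) had 30.7%, 70.0 bp and 11.9%. Summits inside the 21 bases of a piRNA gene numbered 105 in all, with a median signal of 16.9, and 14 of these were among the 438 members of highest signal against 33 among the 438 of lowest. Members with 1 piRNA gene within 200 bp (1062) had a median signal of 21.5, those with 2 (388) 19.5, with 3 (180) 18.6, with 4 or 5 (108) 17.3 and with 6 or more (14) 18.8.

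Relative to the 5' end of the nearest piRNA gene, 754 members (43.0%) lay upstream and 998 (57.0%) at or downstream of it. The bases of the gene itself count as downstream, so the distance rule admits a longer stretch on that side. Some excess there follows from the rule alone, and whether the split goes beyond it was not tested. Over all piRNA genes of the clusters, summit density was lowest just before the 5' end, at 0.330 per kb in the 50 bp before it and 0.346 in the 50 bp before that. It was 0.404 in the 50 bp from the 5' end and 0.501 at 100 to 149 bp downstream. This upstream stretch, which contains the motif, also had the lowest mean GC content, at 26.9 and 26.7% in these bins. A summit near several genes is counted once for each.

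**Figure D5:**
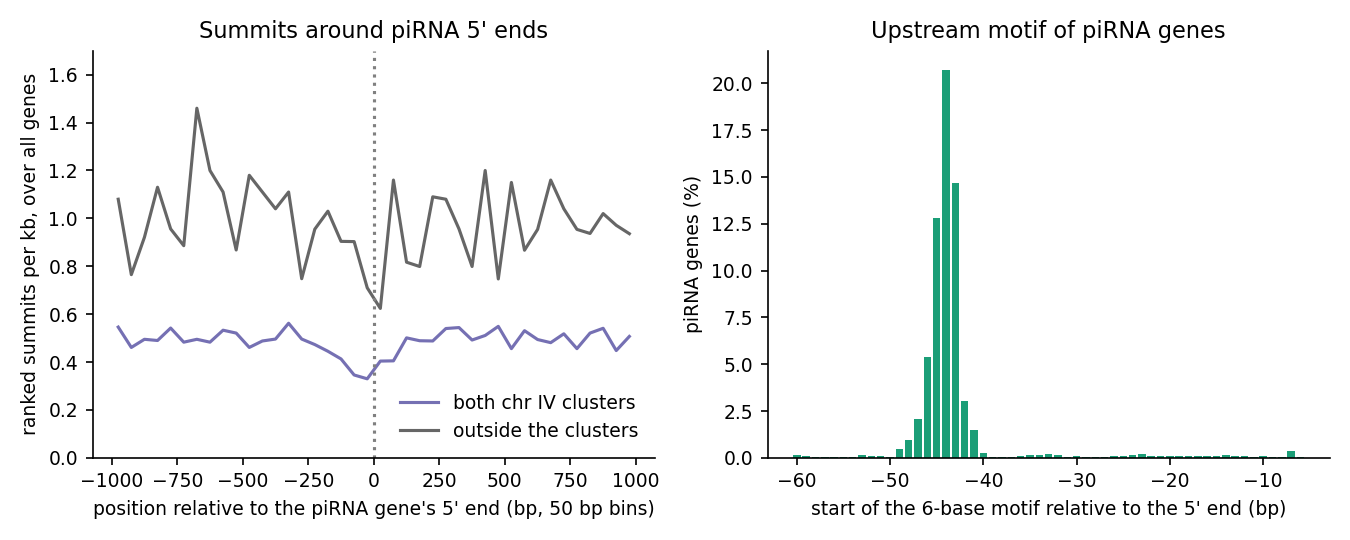
Left, ranked summits per kb in 50 bp bins around the 5' end of all piRNA genes on their strand (distance in bp), in both clusters and outside them. The cluster curve dips to 0.330 per kb just upstream of the 5' end. Right, percent of piRNA genes with GTTTCA starting at each position before the 5' end, with its highest value, 20.7%, at 44 bases before it.

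The share of piRNA genes with a summit nearby differed with the upstream motif in opposite directions in the clusters and on the rest of chromosome IV, and these differences were not tested. In the clusters 17.3% of genes with GTTTCA had a summit within 200 bp (1594 of 9231, exact 95% interval 16.5 to 18.1%), against 15.5% of genes without it (770 of 4973, 14.5 to 16.5%). On other chromosomes the shares were 38.2% (78 of 204) and 38.4% (171 of 445). On the rest of chromosome IV they were 24.8% (71 of 286, 19.9 to 30.3%) and 33.9% (76 of 224, 27.8 to 40.5%), with overlapping intervals. With TGTTTCA the shares were 17.3 and 16.1% in the clusters, 26.9 and 30.3% on the rest of chromosome IV, and 41.4 and 37.6% on other chromosomes. Genes can share a summit, so these intervals are too narrow. Within 50 bp of the summit, GTTTCA on either strand was found in 27.2% of cluster members, in 9.06% of other cluster peaks and in 22.2% of all windows of that length tiled along the clusters. TGTTTCA was found in 16.7, 3.24 and 13.4% respectively. Members lie near piRNA genes by definition and so near this motif, and a match of these letters is not a binding site. The tiled windows also cover cluster sequence away from piRNA genes. Windows near piRNA genes alone were not counted, so whether members lie above or below that sequence is unknown.

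Among the members whose summit lay exactly 200 bp from a piRNA gene, the strongest after that at 21ur-11151 was at 21ur-12557 on V, with a signal of 42.3. Among the summits beyond the limit by a single base pair, the strongest were near 21ur-6763 and 21ur-733 in the left cluster, with signals of 49.1 and 42.2.

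At tRNA and snoRNA genes summits were denser than elsewhere, and at microRNA genes their density was near that of the rest of the genome. Ranked summits within 200 bp of tRNA genes numbered 532, at 1.69 times the density of the rest of the genome and with a median signal of 41.6. For snoRNA genes they numbered 310 (1.48 times, 32.7), and for microRNA genes 146 (1.07 times, 27.0). Past the IDR limit were 10.9% of the tRNA, 12.3% of the snoRNA and 2.05% of the microRNA peaks, against the 0.228% at piRNA genes. Over the whole genome the density ratio at piRNA genes was 0.452, with a median signal of 20.2. This ratio pools the 4 zones and lies below that of each of them (0.459 to 0.868). These differences were not tested, and GC content was not matched in them.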

How the data were processed

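ChIP-seq peak lists of 1 group of 2 biological replicates were used. Per the README files deposited with the samples, each list was derived from filtered alignments and a control library in the ce11 assembly. Not given in the sources used here are the aligner, the peak caller and the read depth. The signal is the authors' deposited value per peak, of unstated scale, and the IDR is the authors' −log10 value, turned into a rate here. In each joint ranked list 8 columns of values per input name no sample and were not used. All 6 chromosome lengths matched WBcel235, and genes came from Ensembl release 115. A summit is the authors' summit position, and every one of the 1752 members was 276 bp wide with its summit in the middle. Densities divide summits by the bases within 200 bp of a piRNA gene, or by the other bases of the zone, leaving out sequence within 200 bp of the 1087 tRNA, snRNA and snoRNA genes. Counting intervals are exact Poisson or Clopper-Pearson at 95%. GC content refers to 101 bp around a position. No chance test was made.

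Named are the members with an IDR of at most 0.01, the 10 of highest signal, the 3 of highest signal in each of the 4 zones, the 3 with the most piRNA genes nearby (1 of them is not reported here) and, with ties broken by signal, the 2 summits farthest inside and the 2 nearest outside the distance limit; other genes were named after their values were seen. Members and alternatives were chosen with earlier results of these data known. Software was scipy 1.17.1, pandas 2.3.3 and numpy 2.4.6 under Python 3.11.15, with figures from matplotlib 3.10.9, and the density calculations were tested on simulated data.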

Additional observations from a re-analysis of the deposited data

How the results depend on the processing

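No paired analysis was possible because the design holds 1 group. The density ratio was below 1 in the clusters, on the rest of chromosome IV and on other chromosomes under each alternative run on it. On other chromosomes it was close to 1 within ranges of GC content, and the counting intervals of both replicates' lists included 1. In both clusters pooled (0.473 in the joint list) it was 0.189 for the strongest 10% of the list, 0.706 within ranges of GC content, 0.748 within GC ranges and annotation classes (added after seeing the data), and 0.349 to 0.430 in the replicates' own lists. On the rest of chromosome IV (0.657) it was 0.568 and 0.773 at 100 and 500 bp, 0.506 for the strongest 10%, 0.805 and 0.807 with GC and with GC and class, and 0.565 to 0.641 by replicate. On other chromosomes (0.868) it was 0.770 and 0.907 at 100 and 500 bp, 0.589 for the strongest 10%, 0.823 without promoters, 0.989 and 0.992 with GC and with GC and class, and 0.878 to 0.900 by replicate. The median signal difference in the clusters (-4.90) was -5.75 and -3.71 at 100 and 500 bp, -0.105 in the strongest 10%, -4.25 without soft-masked summits, -1.56 within GC ranges and -1.91 to -1.08 by replicate. Outside the clusters (-1.71) it was -3.95 and -0.857 at 100 and 500 bp, -2.02 in the authors' other joint list and -2.65 without promoters. It was -1.43 without soft-masked summits, -0.620 within GC ranges and -0.893 to -0.710 by replicate. In the strongest 10% it turned to 0.470, and the cause was not tested. The strongest 10% is picked by signal itself, which limits how far the medians within it can differ, in the clusters too. Members numbered 998 and 3137 at 100 and 500 bp, 93 in the strongest 10%, 1163 without soft-masked summits and 746 to 961 by replicate. Those in the clusters numbered 807, 2112, 65, 866 and 548 to 742 in the same order. The share of cluster piRNA genes with a summit was 8.50 and 33.7% at 100 and 500 bp, 0.676% in the strongest 10%, 13.7% without promoters, 10.6% without soft-masked summits and 6.39 to 9.01% by replicate. Members past the IDR limit numbered 1 and 11 at 100 and 500 bp and 0 to 1 by replicate. Cluster members matched in both replicates made up 6.98 and 14.3% at 50 and 200 bp between summits. The GTTTCA share of cluster members over that of all windows (1.23) was 1.34 at 100 bp to each side. All windows include sequence away from piRNA genes, so neither ratio shows more motif than in other sequence near piRNA genes. Read depth is unknown, so a missing summit at a piRNA gene does not show that nothing was bound there.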
